A study of Mus musculus with 15 samples.

Results

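The unfolded protein response of the endoplasmic reticulum (ER) was followed through 10 genes in the kidneys of male C57BL/6 mice aged 3, 12 and 24 months. The genes were Herpud1, Hspa5, Hsp90b1, Xbp1, Ddit3, Atf4, Sdf2l1, Creld2, Manf and Dnajb9, out of 33058 genes with a value. One library was sequenced from kidney RNA of each of 15 mice, 5 at every age, with no experimental treatment and no genetic change. The methods describe urethane anaesthesia before collection for the young and old mice. The methods describe kidneys cut into pieces, of which remaining tissue was sequenced, and do not name the region. Sample titles begin with 3M at every age, and the age label was used to group the mice. The value of a gene was the sum of the FPKM (sequenced fragments divided by transcript length and by the size of the library, so that levels can be compared between genes) of its annotated transcripts and of assembled transcripts that share its exons or junctions. The 10 genes were chosen by their known role and on their FPKM at 24 and 3 months, so values for that comparison are given as a description without a test. The comparisons of 12 with 3 and of 24 with 12 months were tested, and they share mice with the first.

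When unfolded protein builds up in the ER, the sensors IRE1, PERK and ATF6 are released from the chaperone BiP. IRE1 cuts a short stretch out of Xbp1 mRNA so that an active transcription factor is made, PERK phosphorylates eIF2 and thereby favours translation of ATF4, and ATF6 is cut in the Golgi and moves to the nucleus. The transcription factors then raise ER chaperones, folding enzymes and the machinery that returns misfolded proteins to the cytosol for degradation. Kidney tubule cells make and traffic large amounts of membrane protein, and the response has been studied there in acute and chronic injury.

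The promoters were searched for DNA elements through which this response is known to act, and the matches to the 2 ER stress response elements are shown. Of the 9 promoters found, those of Xbp1, Ddit3, Atf4, Sdf2l1 and Dnajb9 held no match to any motif searched. RefSeq promoters (GRCm38.p6, 250 bases before to 50 after the start) matched 9 of the 10 genes, all but Manf. The ER stress response element (ERSE) was searched as CCAAT, 9 bases of any kind, then CCACG, on both strands. It lay in the promoters of Hspa5, Hsp90b1 and Creld2, 3 of the 9, against 0.119% of all 32851 promoters. The related ERSE-II, in which ATTGG is followed after 1 base by CCACG, lay in that of Herpud1 alone among the 9, against 0.0365% of all promoters. Capitals mark the element, or its reverse complement where the element is on the opposite strand, and each line reads 5′ to 3′ on the strand of the gene.
Hspa5 ERSE, chr2:34771985-34772083, plus strand: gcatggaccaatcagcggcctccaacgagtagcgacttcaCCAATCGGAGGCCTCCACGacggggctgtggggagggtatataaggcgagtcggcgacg
Creld2 ERSE, chr15:88819480-88819578, plus strand, element reversed: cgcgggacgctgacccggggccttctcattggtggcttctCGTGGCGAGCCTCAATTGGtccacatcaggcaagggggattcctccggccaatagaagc
Hsp90b1 distal ERSE, chr10:86705598-86705694, minus strand: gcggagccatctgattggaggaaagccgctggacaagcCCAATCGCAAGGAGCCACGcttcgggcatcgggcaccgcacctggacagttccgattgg
Hsp90b1 proximal ERSE, chr10:86705493-86705591, minus strand, element reversed: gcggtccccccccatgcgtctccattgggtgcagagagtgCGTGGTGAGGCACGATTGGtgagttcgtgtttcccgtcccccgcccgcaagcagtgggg
Herpud1 ERSE-II, chr8:94386337-94386427, plus strand: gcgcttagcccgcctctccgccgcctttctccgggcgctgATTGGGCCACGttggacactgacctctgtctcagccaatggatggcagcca

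The elements began 65 bases before the start in Hspa5, 126 in Creld2, 212 and 107 in Hsp90b1 and 52 in Herpud1. The core of the XBP1 element, TGACGTGG, was in none of the 9 promoters and in 0.676% of all. The core of the ATF4 composite element, TGATG followed after 1 base by AA, was in that of Herpud1, 112 bases before the start on the opposite strand, and in 3.97% of all promoters. A match is a description of letters in this window and no evidence of binding.

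Depth was lower in the youngest mice, with 5.03 to 6.13 Gb aligned per library at 3 months, 5.84 to 8.03 at 12 and 6.07 to 7.33 at 24. A kidney marker, Umod of the thick limb, was present in all libraries at 689 to 999 FPKM. The median log2 fold change of all genes tested was 0.02, 0.02 and -0.0013 for 24 against 3, 12 against 3 and 24 against 12 months. No source used here says how the mice of 12 months were obtained or killed. Because bulk pieces of kidney were sequenced, fewer cells of a type in the piece and less RNA per cell cannot be told apart.

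All 10 genes had a lower mean at 24 than at 3 months, and at 12 months all 10 means already lay below those at 3 months. Hspa5, Herpud1, Xbp1 and Sdf2l1 at 12 months did not overlap with 3 months. Between 12 and 24 months all 10 genes overlapped. Differences between genes in their course over age were not tested. Hsp90b1, Ddit3, Atf4, Manf and Dnajb9 overlapped between ages in every comparison. On the log2(FPKM + 1) scale, the median difference of the 10 genes was -0.60 for 12 against 3 months, -0.25 for 24 against 12 and -0.80 for 24 against 3.

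**Figure D1:**
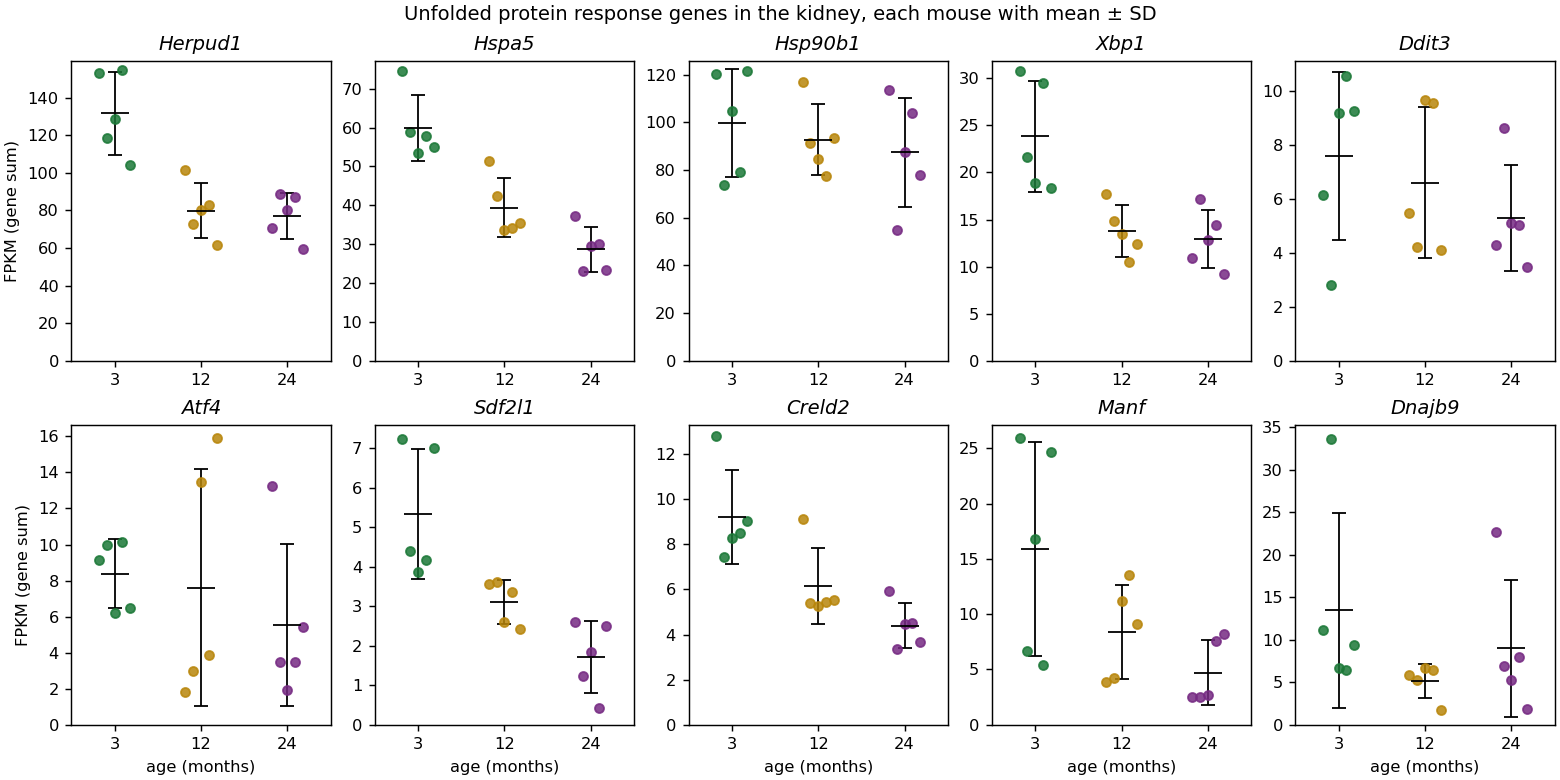
FPKM of the 10 genes (vertical axes, gene sums) by age in months (horizontal axes), with a point for each of 5 mice per age and the mean ± SD in black. The means of Hspa5 are 59.9, 39.4 and 28.6 FPKM at 3, 12 and 24 months, and all 10 genes overlap between 12 and 24 months.

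In limma with Benjamini-Hochberg adjustment, 6 of the 10 genes were lower at 12 than at 3 months at an unadjusted p under 0.05, and none was higher. Over all genes tested that share was 2.9% lower and 11.4% higher, and among genes with a mean FPKM of at least 1 it was 4.86% lower. None of the 10 passed an adjusted p of 0.05, which 0.25% of all genes did, and the adjusted p of the 10 lay between 0.0862 and 0.854. At 12 months 4 of the 10 lay wholly below the mice of 3 months, against 0.667% of all genes. Between 24 and 12 months 3 of the 10 were lower at an unadjusted p under 0.05 and none higher, against 3.36% and 3.07% of all genes and 4.97% lower of those with a mean FPKM of at least 1. All 10 overlapped between these ages, where 0.573% of all genes lay wholly lower at 24 months. The share of genes lying wholly higher was not analysed here. Adjustment was passed by none of the 10 and by 0.0031% of all genes (adjusted p of the 10 between 0.726 and 0.952). For 24 against 3 months, 5 of the 10 (Herpud1, Hspa5, Xbp1, Sdf2l1 and Creld2) lay wholly below the youngest mice, where 0.91% of all genes did, a count the choice of genes used. Values at 3 and at 24 months, which entered that choice, also form 1 side of each tested comparison. The counts for 12 against 3 and 24 against 12 months are therefore not free of the choice either.

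Hspa5 encodes BiP, the HSP70 chaperone of the ER lumen and the classical readout of the response. Its FPKM in the 5 mice of 3 months was 74.5, 58.9, 53.4, 57.9 and 54.9. At 12 months it was 51.5, 42.3, 33.7, 34.1 and 35.5, and at 24 months 37.3, 23.1, 29.5, 30.0 and 23.3. Every mouse of 12 or 24 months was below every mouse of 3 months, and 1 mouse of 24 months reached into the range at 12. The log2 difference was -0.60 ± 0.14 (SE, 5 mice per age, limma adjusted p = 0.0982) for 12 against 3 months and -0.45 ± 0.16 (adjusted p = 0.726) for 24 against 12. The mean at 24 months was 0.478 times that at 3 months.

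Herpud1 encodes an ER membrane protein that helps to assemble the degradation complex around HRD1. Its FPKM was 153, 118, 129, 155 and 104 at 3 months. At 12 months it was 101, 72.9, 80.4, 82.8 and 61.8, and at 24 months 70.6, 88.7, 80.3, 87.2 and 59.3. The older groups both lay below the youngest mice and overlapped with each other almost fully. The difference for 12 against 3 months was -0.72 ± 0.15 on the log2 scale (limma adjusted p = 0.0862), and that for 24 against 12 months was -0.04 ± 0.15 (adjusted p = 0.952).

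Xbp1 encodes the transcription factor whose mRNA IRE1 cuts. Its FPKM was 30.8, 21.7, 18.9, 29.5 and 18.4 at 3 months. It was 17.7, 14.9, 13.5, 10.5 and 12.4 at 12 months and 10.96, 17.2, 12.9, 14.5 and 9.24 at 24 months. No mouse of 12 or 24 months reached the lowest value at 3 months, and the log2 differences were -0.74 ± 0.18 for 12 against 3 months (limma adjusted p = 0.111) and -0.09 ± 0.17 for 24 against 12 (adjusted p = 0.903). Of 7461 genes averaging 5 FPKM or more, Xbp1 was the one whose values were most like those of Herpud1 over the 15 mice (Pearson r = 0.93 on log2(FPKM + 1), a description that includes the age difference). The next were Slc26a4 (r = 0.89), the anion exchanger pendrin, Atp2a2 (r = 0.89), the calcium pump that fills the ER, Hspa1a (r = 0.88), an inducible cytosolic HSP70, and Jmjd1c (r = 0.84). Hspa5 ranked 30 and Hsp90b1 2063 on this measure.

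Sdf2l1 and Creld2 encode small ER proteins, of which SDF2L1 works with BiP and its co-chaperones. Sdf2l1 stood at 7.25, 4.40, 3.86, 4.17 and 7.01 FPKM at 3 months. It stood at 3.55, 3.61, 2.59, 3.35 and 2.43 at 12 months and at 2.61, 1.24, 1.85, 0.413 and 2.49 at 24 months. Both steps passed an unadjusted p of 0.05 but not adjustment (limma, log2 difference -0.60 ± 0.18 with adjusted p = 0.177, then -0.66 ± 0.25 with adjusted p = 0.747). Creld2 stood at 12.8, 7.43, 8.27, 8.49 and 9.04 FPKM at 3 months. It stood at 9.14, 5.40, 5.26, 5.43 and 5.54 at 12 months and at 5.94, 3.37, 4.45, 4.53 and 3.68 at 24 months. In Creld2, 1 mouse of 12 months (replicate 17) reached into the range at 3 months and the other 4 lay close together below it. Its steps were -0.52 ± 0.17 (adjusted p = 0.213) and -0.40 ± 0.17 (adjusted p = 0.755) by limma. The second step of either gene no longer passed an unadjusted p of 0.05 when certain single mice were left out, replicates 17, 18 or 32 for Sdf2l1 (log2 difference -0.62 to -0.61) and replicates 17, 32, 33, 34 or 35 for Creld2 (-0.41 to -0.27). That of Creld2 did not pass with TPM either (-0.39).

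Manf, a secreted ER protein with protective effects on stressed cells, had the lowest ratio of the 10, with a mean at 24 months that was 0.296 times that at 3 months, and a wide spread. Its FPKM at 3 months was 25.9, 6.65, 16.8, 5.36 and 24.7. At 12 months it was 3.84, 4.24, 11.2, 13.5 and 9.14, and at 24 months 2.55, 2.49, 2.65, 7.59 and 8.22. Among the youngest mice 3 were high and 2 low, and all ages overlapped. The log2 differences of -0.74 ± 0.50 for 12 against 3 months and -0.73 ± 0.42 for 24 against 12 missed an unadjusted p of 0.05 in limma (adjusted p = 0.539 and 0.82).

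Dnajb9, a DNAJ co-chaperone of BiP, had medians of 9.33 FPKM at 3 months, 5.82 at 12 and 6.90 at 24. In it 1 mouse stood apart at 3 months (replicate 6, 33.6 FPKM, others 6.45 to 11.1) and 1 at 24 months (replicate 31, 22.7 FPKM). The log2 difference for 12 against 3 months was -1.04 ± 0.45 (limma adjusted p = 0.33), past an unadjusted p of 0.05. It no longer passed when any 1 of replicates 5, 6, 9, 17, 18 or 21 was left out, and was then -1.10 to -0.66. Nor did it pass with all 15 mice in 1 fit (-1.04) or with annotated transcripts only (-1.09). Between 12 and 24 months Dnajb9 was the 1 gene of the 10 with a higher mean in the older mice, by 0.44 ± 0.51 (limma adjusted p = 0.833), which became 0.042 without replicate 31, 0.80 without replicate 35 and 0.17 without replicate 21.

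Hsp90b1 encodes GRP94, the HSP90 of the ER, and by mean FPKM, a level per length, was second to Herpud1 among the 10 genes at 3 months and first at 12 and 24 months. It ranged from 73.7 to 122 FPKM at 3 months, from 77.6 to 117 at 12 and from 54.9 to 114 at 24. With a mean of 99.9 ± 22.5 at 3 months, 92.8 ± 14.9 at 12 and 87.6 ± 22.9 at 24 (SD, n = 5 each), it overlapped widely between ages. Its log2 differences were -0.09 ± 0.17 and -0.11 ± 0.19 for the 2 tested steps (limma adjusted p = 0.83 and 0.891).

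The transcription factors of the PERK arm were low and variable. Ddit3, which encodes CHOP, ranged from 2.81 to 10.5 FPKM at 3 months, from 4.10 to 9.66 at 12 and from 3.47 to 8.62 at 24. Most of this was a retained-intron and an assembled transcript. The annotated protein-coding ENSMUST00000026475 had means of only 0.495, 0.269 and 0.375 FPKM at 3, 12 and 24 months, and ENSMUST00000139091 a mean of 0.0514 over all mice. Whether the assembled transcript encodes CHOP was not analysed here. Atf4 ranged from 6.20 to 10.1 FPKM at 3 months, from 1.83 to 15.9 at 12 and from 1.94 to 13.3 at 24. At 12 months Atf4 had 2 mice at 13.5 and 15.9 and 3 mice at 3.89 or less, so that its mean of 7.61 described no single mouse. Neither gene passed an unadjusted p of 0.05 in either tested step (limma adjusted p between 0.671 and 0.92). ATF4 is regulated in large part through translation, which these RNA levels do not show.

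The mouse of 12 months with 5.84 Gb (replicate 20) and that of 24 months with 6.07 Gb (replicate 32) were within the depth of the youngest mice. In the former, Hspa5 (34.1 FPKM), Herpud1 (82.8), Xbp1 (10.5), Sdf2l1 (3.35), Creld2 (5.43), Atf4 (3.89) and Dnajb9 (6.42) were below every mouse of 3 months, and Hsp90b1 (77.6), Ddit3 (9.54) and Manf (13.5) were not. In the latter, Ddit3 (8.62) and Dnajb9 (6.90) were not below every mouse of 3 months, and the other 8 genes were, on values that the choice of genes used. The part of depth in the age differences was not tested.

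With each age centred on its mean, the log2(FPKM + 1) values of Hspa5 and Creld2 had r = 0.89 and rho = 0.78 over 15 mice (permutation within ages, p = 0.00102 and 0.00416, adjusted over 9 genes 0.00918 and 0.0374). For Hsp90b1 r was 0.68 and rho 0.67 (permutation p = 0.00965 and 0.0115, adjusted p = 0.0434 and 0.0516). Both relations rested partly on the 2 mice farthest from the median of Hspa5 (3 months replicate 5 and 24 months replicate 32), without which r was 0.84 for Creld2 and 0.55 for Hsp90b1 (permutation, adjusted p = 0.0579 and 0.0965) and neither passed. Without these mice r was 0.59 for Xbp1 and 0.57 for Dnajb9 (permutation, adjusted p = 0.0965 and 0.104). Differences between the coefficients were not tested. Herpud1 had r = 0.38 and rho = 0.31, and Xbp1 r = 0.41 and rho = 0.37 with Hspa5 (permutation p = 0.196 and 0.288, and p = 0.158 and 0.221). Manf had r = -0.30 and rho = -0.25 (permutation p = 0.286 and 0.317), and r = -0.71 without the 2 mice (permutation, adjusted p = 0.0117). The coefficients r of the other 4 genes over 15 mice lay between -0.36 and 0.47 and did not pass the test.

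The isoforms of Herpud1 are of interest because 1 of them, ENSMUST00000161085, is annotated as a target of nonsense-mediated decay, the pathway that removes mRNAs with an early stop codon. As annotated, it begins within the first intron of the main transcript, with a first exon of 28 bases (chr8:94387553-94387580, GRCm38, plus strand) spliced to the usual second exon at position 94389356. A second decay isoform, ENSMUST00000159450, is annotated with its own first exon of 88 bases at chr8:94387599-94387686 and the same second exon. Both share exons 2 to 5 with the main transcript and end within its exon 6. Their first exons are the only stretch that tells the decay isoforms from each other before that end, and they are shown in capitals from GENCODE M21, with 10 bases of the shared second exon and beside the end of the main first exon.
ENSMUST00000161085, decay isoform: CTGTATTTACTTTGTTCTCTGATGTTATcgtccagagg
ENSMUST00000159450, decay isoform: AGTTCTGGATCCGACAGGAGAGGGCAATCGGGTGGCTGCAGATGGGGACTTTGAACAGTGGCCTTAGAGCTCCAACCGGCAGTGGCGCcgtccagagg
ENSMUST00000161576, main transcript: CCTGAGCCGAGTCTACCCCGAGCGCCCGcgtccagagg

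The annotated reading frame is 186 bases in the first and 107 bases in the second decay isoform, against 1173 in the main transcript. In both decay isoforms the frame is already open at the first base, and no start codon stands there. Their models can thus be incomplete at the 5′ end, and their frames and first exons are not known to be whole. ENSMUST00000161085 had 3.91, 3.76, 10.6, 10.8 and 7.04 FPKM in the mice of 3 months. At 12 months it had 0.106, 0.237, 7.01 and 3.96 FPKM in 4 mice and was listed at 0 in replicate 18. At 24 months it was listed at 0 in 4 mice and at 0.0983 FPKM in replicate 31. It was thus present in all of the youngest mice and nearly absent from the oldest, while the mice of 12 months were split into 3 near 0 and 2 within the range at 3 months. A value listed at 0 can be a failed estimate, and no depth in reads is known for it.

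Of the Herpud1 FPKM, this isoform took 2.55% to 8.28% at 3 months, 0% to 8.47% at 12 and 0% to 0.139% at 24. The mean share differed by -2.50 percentage points between 12 and 3 months (2-sided exact permutation test, p = 0.246) and by -3.02 between 24 and 12 months (exact permutation p = 0.0873). The smallest p this test allows with 5 mice against 5 is 0.00794. Values at 3 or 24 months, which entered the choice of this isoform, form 1 side of each test, so neither p is free of that choice. The other decay isoform, ENSMUST00000159450, had 4.98 to 13.6 FPKM at 3 months, 0 to 12.9 at 12 and 0.501 to 13.4 at 24, with 10.2 or more in 3 of the oldest mice. Together the 2 decay isoforms made up 6.13% to 19.8% of Herpud1 at 3 months, 2.41% to 24.0% at 12 and 0.848% to 17.2% at 24, ranges that overlapped throughout (exact permutation p = 0.357 for 12 against 3 months and 0.659 for 24 against 12). How the assembler divided reads between the 2 isoforms was not tested.

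**Figure D2:**
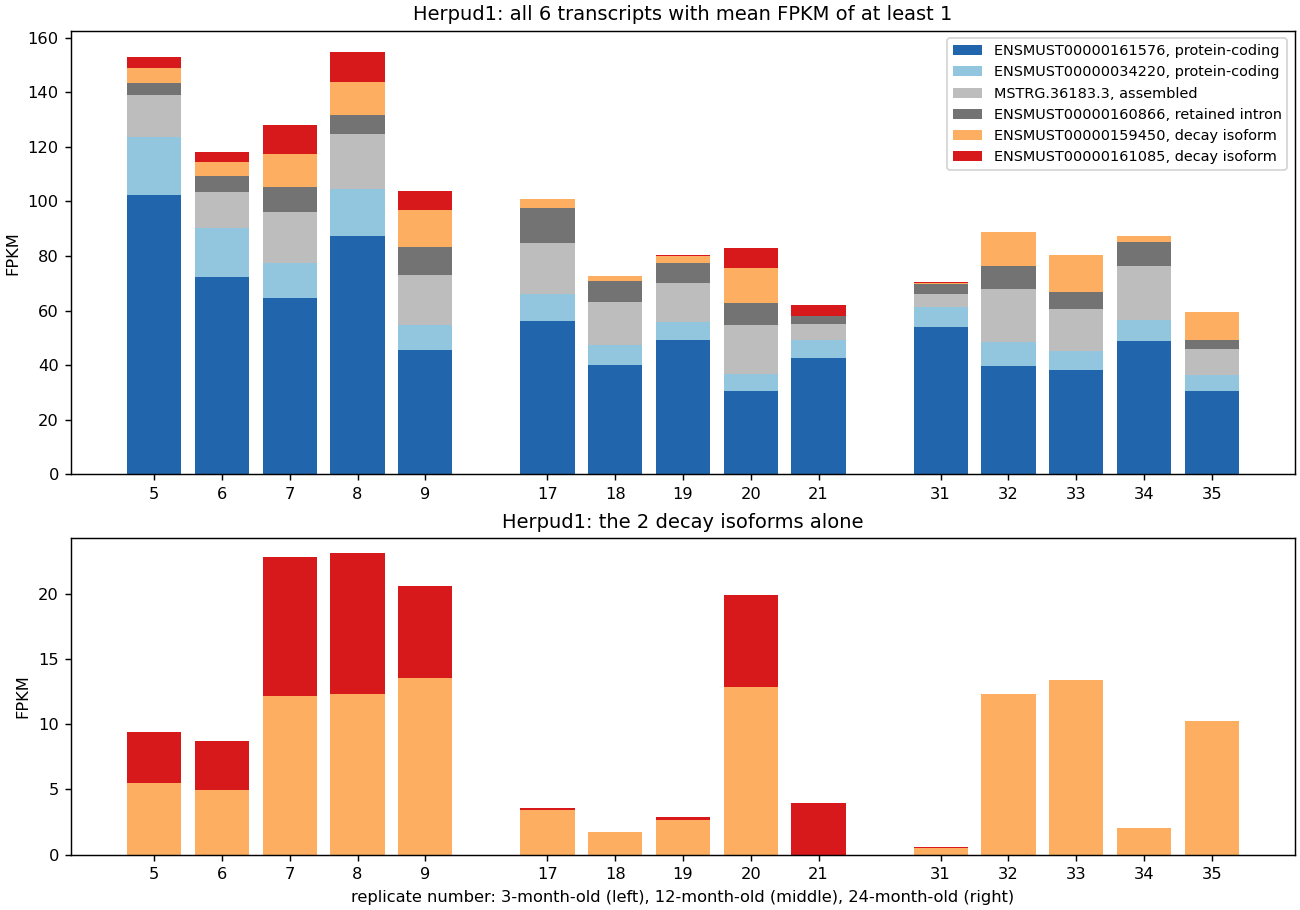
FPKM (vertical axes) of the Herpud1 transcripts in each of 15 mice, named by replicate number and ordered by age, stacked above for the 6 transcripts with a mean of 1 FPKM or more and for the 2 decay isoforms below. The red isoform ENSMUST00000161085 is seen in all mice of 3 months and is at most 0.0983 FPKM at 24 months, where 3 mice hold 10.2 or more FPKM of the orange ENSMUST00000159450.

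Without both decay isoforms, Herpud1 had 144, 109.6, 106, 132 and 83.3 FPKM at 3 months and 97.7, 71.2, 77.5, 62.9 and 57.9 at 12 months, with means of 115 ± 23.6 and 73.4 ± 15.5 (SD, exact permutation p = 0.0159). At 24 months it had 70.0, 76.4, 66.9, 85.1 and 49.1 FPKM, with a mean of 69.5 ± 13.4. The means stayed lower in the older mice, but the ages no longer lay apart, since replicate 17 of 12 months (97.7) and replicate 34 of 24 months (85.1) were above the lowest mouse of 3 months (83.3). The main protein-coding transcript, ENSMUST00000161576, carried a mean share of 55.7%, 55.4% and 55.2% of the gene at 3, 12 and 24 months. The second protein-coding transcript, ENSMUST00000034220, in which exon 3 starts 3 bases later, had 9.20 to 21.4 FPKM at 3 months, 6.14 to 9.66 at 12 and 5.86 to 8.74 at 24 (limma log2 difference -0.97 ± 0.22 for 12 against 3 months, adjusted p = 0.348). An assembled transcript of 7279 bases, MSTRG.36183.3, and the retained-intron transcript ENSMUST00000160866 overlapped between all ages, at 4.98 to 20.1 and 2.98 to 12.8 FPKM. By FPKM times length, the assembled transcript took 44.9% of the Herpud1 bases, the main one 42.8% and ENSMUST00000161085 0.862%.

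Of 41 transcripts of the 10 genes, 24 had a mean FPKM of at least 1. For 12 against 3 months 11 of the 24 were lower and none higher at an unadjusted p under 0.05 in limma, against 2.5% lower of all 124761 transcripts tested. For 24 against 12 months 3 of the 24 were lower and none higher, against 2.17% lower of 125282. The filter on the mean was not applied to all transcripts, so these shares are not a like background for the 24. No adjusted p of the 24 was under 0.05 in either comparison, and transcripts of 1 gene are not measured independently.

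Hspa5 had a pair of protein-coding transcripts with the same coding length of 1965 bases. ENSMUST00000028222, of 9 exons, ranged from 33.1 to 53.8 FPKM at 3 months, from 20.7 to 38.9 at 12 and from 18.3 to 28.4 at 24. ENSMUST00000100171, of 8 exons, had 18.5, 22.6, 8.12, 19.3 and 14.1 FPKM at 3 months. It had 10.8, 17.9, 10.6, 12.1 and 9.87 at 12 months and 7.99, 3.32, 4.64, 3.27 and 2.59 at 24 months. For this transcript 12 and 24 months did not overlap (limma log2 difference -1.36 ± 0.26, adjusted p = 0.838), and its log2 difference for 12 against 3 months was -0.36 ± 0.27. The longer one differed by -0.64 ± 0.20 for 12 against 3 months (limma adjusted p = 0.539) and by -0.15 ± 0.19 for 24 against 12. Whether the transcripts differed in their course was not tested. Among the Manf transcripts, ENSMUST00000159283 carried 68.6%, 83.8% and 85.4% of the gene on average at 3, 12 and 24 months. The shorter ENSMUST00000069036 had 3.81, 0.745, 3.13, 0.517 and 7.25 FPKM at 3 months, at most 1.41 at 12 months, where replicate 17 was listed at 0, and at most 0.362 at 24 months.

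**Figure D3:**
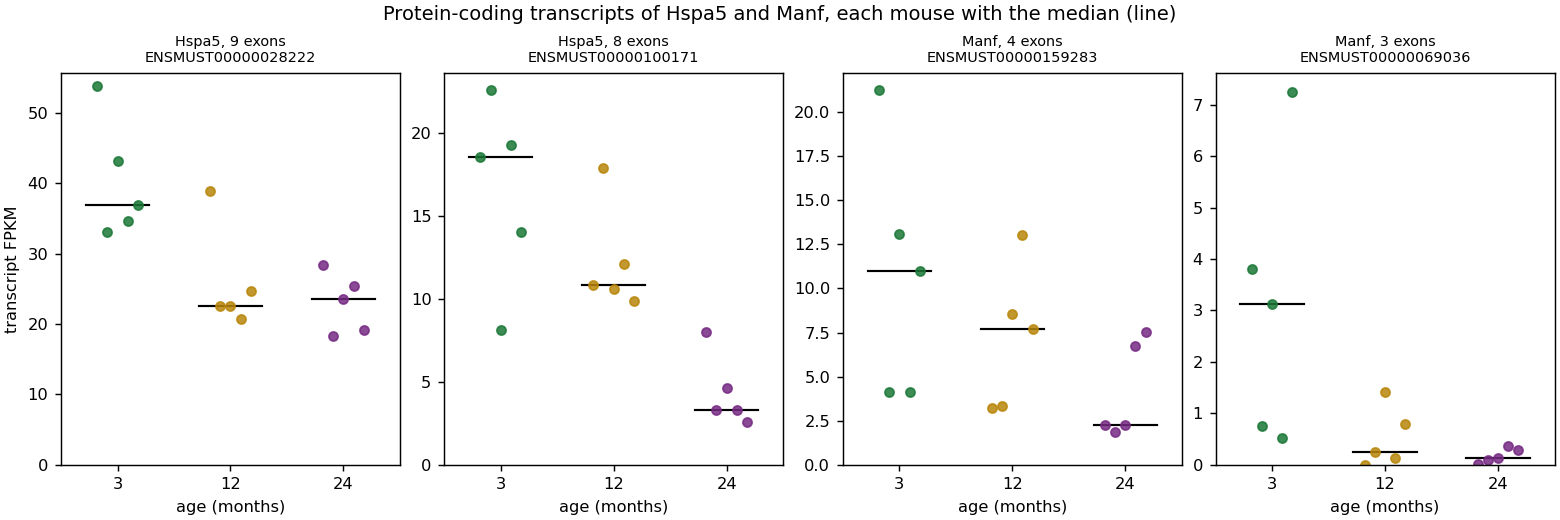
FPKM (vertical axes) of the protein-coding transcripts of Hspa5 and Manf by age in months (horizontal axes), with a point for each of 5 mice and the median as a line. Hspa5 ENSMUST00000100171 is at 9.87 FPKM or more in every mouse of 12 months and at 7.99 or less in every mouse of 24 months.

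Xbp1 was listed as 6 transcripts, 4 annotated and 2 assembled. The 26 bases that IRE1 removes lie in exon 4 of ENSMUST00000063084 at chr11:5524279-5524304 (GRCm38, plus strand) and are shown in capitals, as the stretch that would have to be missing.
Xbp1 IRE1 site: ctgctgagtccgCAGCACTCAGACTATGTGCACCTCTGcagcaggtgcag

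None of the 4 annotated Xbp1 transcripts has an intron of 26 bases, the shortest being 300 bases, so cut and uncut Xbp1 mRNA could not be told apart in their values. The introns of the 2 assembled transcripts were not analysed here. ENSMUST00000149623 (5.90 to 10.9 FPKM at 3 months, 1.27 to 9.43 at 12, 0.711 to 6.06 at 24), the retained-intron ENSMUST00000145588 (3.40 to 7.29, 2.15 to 4.01, 1.22 to 2.95) and ENSMUST00000149159 (1.58 to 4.93, 0.443 to 1.63, 0.499 to 2.01) were lower at 12 than at 3 months at an unadjusted p under 0.05 (limma adjusted p between 0.47 and 0.638). ENSMUST00000063084 ranged from 0.336 to 5.51 FPKM at 3 months, from 0.448 to 4.26 at 12 and from 1.03 to 6.20 at 24 and overlapped throughout. Ddit3 was carried mainly by the retained-intron ENSMUST00000134686, with a mean share of 62.4%, 58.2% and 58.5% at 3, 12 and 24 months, and by the assembled MSTRG.4923.4. Dnajb9 was carried by ENSMUST00000015049, which held the high values of replicate 6 (31.9 FPKM) and replicate 31 (19.5 FPKM), and by the assembled MSTRG.7931.1 at 0.167 to 6.41 FPKM. Atf4, Creld2 and Sdf2l1 had 1 transcript each, and 97.1% to 98.5% of Hsp90b1 on average was ENSMUST00000020238. The remaining assembled transcripts of Xbp1, MSTRG.5103.1 and MSTRG.5103.3, overlapped between all ages.

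Of 11929 circular RNAs listed, 1 came from the 10 genes, an intronic circle of Hsp90b1 at chr10:86703602-86704293 (GRCm38, minus strand). Its estimated count was 22.0 to 64.5 at 3 months, 34.2 to 44.0 at 12 and 37.0 to 57.5 at 24. It overlapped between all ages, and neither tested step passed (edgeR quasi-likelihood test, log2 difference -0.36 with adjusted p = 0.403 and 0.21 with adjusted p = 0.488).

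The wider pathway was read from 6 lists of 90 other genes, of which 89 had a value and Cebpb was not analysed here. These lists were chosen with earlier results of these data known, so their counts are not free of that choice. At 24 against 3 months 14 of the 89 were lower and 7 higher at an unadjusted p under 0.05 in limma, against 3.47% lower and 11.4% higher of all genes and 6.35% lower of those averaging 1 FPKM or more. At an adjusted p under 0.05 there were 2, where 1.22% of all genes passed. At 12 against 3 months 5 of the 89 were lower and 3 higher, which was 5.62% lower and near the background. At 24 against 12 months 2 were lower and 4 higher, and none of the 89 passed adjustment in these 2 comparisons. Median log2 differences over the 89 genes were -0.07, -0.05 and -0.05 for 24 against 3, 12 against 3 and 24 against 12 months. With median-ratio scaling in place of FPKM, the counts lower and higher were 21 and 2 for 24 against 3 months, with 12.9% of genes averaging 1 FPKM or more lower, and 19 and 1 for 12 against 3, with 11.8%. With TPM they were 9 and 3 for 12 against 3 months and 1 and 5 for 24 against 12. Single mice moved the small counts too. For 24 against 3 months the 7 higher became 3, 4, 2 and 3 without replicates 6, 7, 33 and 35. For 12 against 3 months the 5 lower became 8 and 3 without replicates 6 and 19, and the 3 higher became 5, 6 and 7 without replicates 5, 9 and 17. For 24 against 12 months the 2 lower became 4, 1, 5, 1 and 1 without replicates 17, 21, 31, 33 and 35, and the 4 higher became 2 without replicate 17, 19, 33 or 34 and 7 without replicate 32. All 10 genes of the response remained lower at 24 and at 12 than at 3 months under both scalings.

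Of the sensors and their relatives, Atf6b passed adjustment at 24 against 3 months. Atf6b, a close relative of ATF6, had a mean of 9.89 FPKM at 3, 7.95 at 12 and 6.53 at 24 months and fell between 3 and 24 months without overlap (limma log2 difference -0.54 ± 0.10, adjusted p = 0.0412). Eif2ak3, which encodes PERK, had means of 12.0, 10.4 and 9.11 FPKM (-0.36 ± 0.09 for 24 against 3 months, adjusted p = 0.0901). Ern1, which encodes IRE1, had means of 6.00, 6.50 and 6.80 FPKM (0.17 ± 0.15, adjusted p = 0.662). Atf6 had means of 13.1, 12.2 and 12.9 FPKM (-0.02 ± 0.08, adjusted p = 0.919). Of the 14 genes in this list 3 were lower and 3 higher at 24 against 3 months, none differed at 12 against 3, and 2 were higher at 24 against 12. Nfyb, a subunit of the factor that binds CCAAT, was higher at 24 than at 12 months (3.84 and 5.64 FPKM, 0.48 ± 0.16, adjusted p = 0.714) and at 24 than at 3 months (0.24 ± 0.09, adjusted p = 0.242). Ern2, the other IRE1 gene, was also higher at 24 than at 12 months (0.0235 and 0.0706 FPKM, limma log2 difference 0.064, adjusted p = 0.747) and at 24 than at 3 months (adjusted p = 0.274), at levels near 0. The genes of this list that passed outside the naming rule, found after their values were seen, were Nfya (lower, 11.3 and 9.28 FPKM) and Creb3l3 (higher, 0.217 and 0.479 FPKM) for 24 against 3 months.

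Of the 15 measured genes around eIF2 and the PERK arm, 3 were lower at 24 against 3 months and none higher. Psat1, an enzyme of serine synthesis and a target of ATF4, had means of 16.5, 7.57 and 7.04 FPKM at 3, 12 and 24 months. It fell between 3 and 24 months (limma -1.09 ± 0.21, adjusted p = 0.0428), and its difference for 12 against 3 months was -1.04 ± 0.26 (adjusted p = 0.12). Slc3a2, the heavy chain of amino acid transporters, had means of 59.7, 46.4 and 45.2 FPKM (-0.35 ± 0.10 for 12 against 3 months, adjusted p = 0.173). The remaining lower gene was the stress-responsive factor Atf3 (4.09 and 1.17 FPKM at 3 and 24 months, -1.19 ± 0.39, adjusted p = 0.188), named after its values were seen. Atf5 was higher at 12 than at 3 months (1.80 and 3.07 FPKM, 0.53 ± 0.23, adjusted p = 0.33).

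Of 16 lumenal chaperones and co-chaperones 1 was lower and 2 higher at 24 against 3 months, and of 13 disulfide enzymes 2 were lower and none higher. Hyou1, the nucleotide exchange factor of BiP, was the lower chaperone, at 42.5, 32.97 and 28.1 FPKM for 3, 12 and 24 months (limma -0.36 ± 0.11 for 12 against 3 months, adjusted p = 0.197, and -0.59 ± 0.14 for 24 against 3, adjusted p = 0.0766), and did not overlap between 3 and 24 months. The most abundant ones, named after their values were seen, had means at 3, 12 and 24 months of 142, 183 and 150.3 FPKM for Calr, 62.6, 65.4 and 65.6 for Canx, 134, 129 and 124 for P4hb and 85.8, 89.0 and 82.7 for Pdia3, none past an unadjusted p of 0.05. The lower disulfide enzymes were Txndc11 (15.3 and 12.4 FPKM at 3 and 24 months) and the oxidase Ero1l (10.1 and 5.55 FPKM), with adjusted p of 0.146 and 0.319 by limma, of which Txndc11 did not overlap between these ages. Besides Dnajc10, a reductase of the DNAJ family (11.1 and 13.8 FPKM, adjusted p = 0.247), Fkbp2, a prolyl isomerase, was higher without overlap at 24 months (9.40 against 13.3 FPKM, 0.46 ± 0.13, adjusted p = 0.125). At 24 against 12 months Cnpy2 was lower (21.1 and 17.6 FPKM, adjusted p = 0.764) and Uggt1, the glucosyltransferase that senses misfolded glycoproteins, higher (12.0 and 14.6 FPKM, 0.25 ± 0.08, adjusted p = 0.714).

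Degradation from the ER, the longest of the 6 lists, had the highest count of lower genes, 5 of 18 (27.8%) at 24 against 3 months with 1 higher. The share was 21.4% in the list of sensors and 20% in that of the PERK arm. Over all genes it was 3.47%, and 6.35% of those averaging 1 FPKM or more. None of the 18 passed adjustment, and differences between lists were not tested. Lower genes, named after their values were seen, included Syvn1, which encodes the ligase HRD1 (means of 19.01 FPKM at 3 and 9.80 FPKM at 24 months, limma log2 difference -0.90 ± 0.22, adjusted p = 0.0865), its partner Sel1l (24.7 and 17.8 FPKM, adjusted p = 0.18), Derl1 of the channel (29.7 and 20.5 FPKM, adjusted p = 0.322) and the ATPase Vcp (66.0 and 56.9 FPKM, adjusted p = 0.253). Selenos, a membrane partner of the retrotranslocation complex, was the higher gene (19.02 and 23.4 FPKM, 0.28 ± 0.11, adjusted p = 0.243). At 12 against 3 months 2 of the 18 were lower, Syvn1 among them, and 1 was higher, the lectin Erlec1 (20.5 and 24.0 FPKM, 0.21 ± 0.06, adjusted p = 0.161). At 24 against 12 months the lectin Os9 was lower (21.4 and 14.9 FPKM, -0.48 ± 0.12, adjusted p = 0.589). In the 13 genes of translocation and export none was lower in any comparison. Kdelr3, a receptor that returns proteins to the ER, was higher at 12 than at 3 months, at 1.22 and 0.767 FPKM (0.33 ± 0.11, adjusted p = 0.216).

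**Figure D4:**
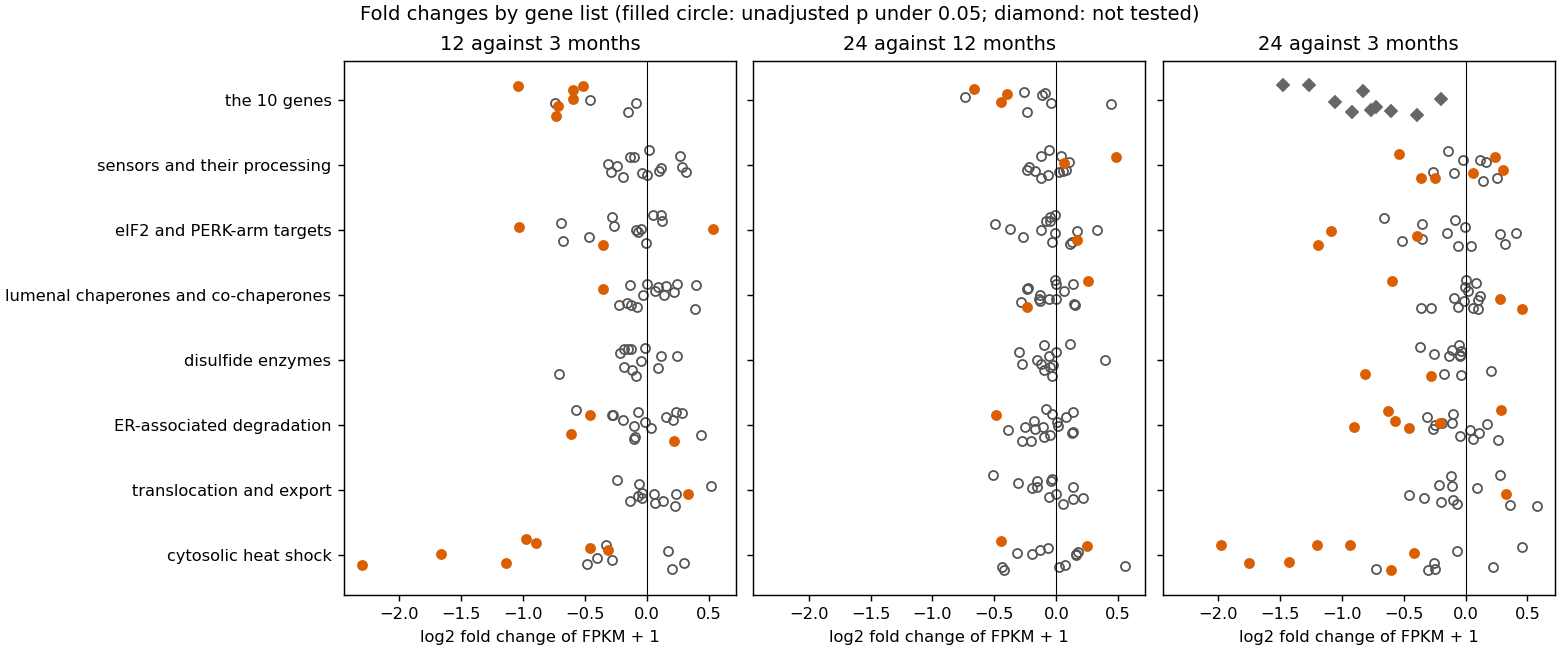
Log2 fold change of FPKM + 1 (horizontal axes), older against younger in 3 comparisons, with a point for each gene. Rows are the 10 genes, the 6 pathway lists and the heat shock list, which is labelled cytosolic but includes the mitochondrial Hspd1 and Hspe1. Filled circles have an unadjusted p under 0.05, and the 10 genes are drawn as diamonds without a test at 24 against 3 months, where they range from -1.48 to -0.20.

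A list of 14 heat shock genes was cytosolic but for the mitochondrial Hspd1 and Hspe1. Of the 14, 7 were lower and none higher at 12 against 3 months, and also at 24 against 3 months, by the same limma fit. At the same unadjusted p under 0.05, 2.9% and 3.47% of all genes were lower. Among genes with a mean FPKM of at least 1 it was 4.86% and 6.35%. The summed FPKM of this list was 1110.3 to 1521 at 3 months, 870.0 to 1007 at 12 and 745 to 946 at 24, without overlap between the youngest and the older mice. Hspa8 was its largest part, with means of 728, 370 and 276 FPKM at 3, 12 and 24 months, and the sum without it was not analysed here. By log2 difference 11 of the 14 were lower at 12 and 12 at 24 than at 3 months. Means rose with age for Hspd1 (91.1, 107 and 120 FPKM) and Hspe1 (89.3, 97.2 and 98.6). Hsph1 fell from a mean of 32.2 to 14.1 FPKM between 3 and 12 months (-1.14 ± 0.15, adjusted p = 0.0245). Early response genes, which react within minutes to handling and anaesthesia, were lower too in 2 of 10 at 12 against 3 months and 4 of 10 at 24 against 3, none being higher. Their summed FPKM without Jun, which was listed at 0 in 5 of 5 mice of 12 months, was 111 to 184 at 3 months, 30.1 to 143 at 12 and 32.4 to 109.6 at 24. The part of either list in the values of the 10 genes was not tested.

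Cell type markers were read beside the 10 genes in the same limma fits, at an unadjusted p of 0.05. Over all genes 2.9% were lower and 11.4% higher at 12 against 3 months, and 3.47% lower and 11.4% higher at 24 against 3. With lists this short, 1 higher marker is close to that share. The marker lists were chosen with earlier results of these data known. Of 7 markers of B cells and of plasma cells, the latter rich in ER, 5 were higher at 12 and 5 at 24 than at 3 months. Their summed FPKM was 11.5 to 102 at 3 months, 70.4 to 473 at 12 and 105 to 245 at 24. Most of it was Igkc, with means of 32.7, 235 and 127 FPKM. The plasma cell marker Tnfrsf17 was at most 0.199 in any mouse, with means of 0.0834, 0.0868 and 0.0519 FPKM at 3, 12 and 24 months. By log2 difference Tnfrsf17 was the 1 marker of the 7 that was lower at 24 than at 3 months. None of the 7 was lower at 12 than at 3 months. Means of Jchain, of the same list, were 1.902, 7.035 and 5.358 FPKM at 3, 12 and 24 months. Those of Mzb1 were 0.088, 0.233 and 0.107 FPKM. Of the 4 stromal markers 4 were higher at 12 and 2 at 24 than at 3 months, with sums of 15.1 to 39.9, 38.5 to 64.4 and 29.2 to 48.9 FPKM. At 12 against 3 months none of 6 proximal tubule, 5 thick limb and distal tubule, 4 podocyte and 4 endothelial markers passed an unadjusted p of 0.05, and 1 of 4 macrophage, 1 of 4 T cell and 1 of 5 adrenal and fat markers was higher. Of 6 collecting duct markers 2 were lower at 12 and 1 at 24 than at 3 months, with summed FPKM of 76.9 to 196 at 3 months, 63.8 to 94.0 at 12 and 55.8 to 101 at 24. At 24 against 3 months 2 of 6 proximal tubule markers were lower, and 1 of 4 endothelial, 1 of 4 T cell and 1 of 6 adrenal and fat markers was higher. The part of these cell types in the values of the 10 genes was not tested.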

How the data were processed

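Per the labels, kidney RNA of 15 mice was depleted of ribosomal RNA and made into stranded libraries, whereas the methods of the study describe oligo(dT) selection. The authors trimmed reads, mapped them to GRCm38 with Ensembl 88 annotation and assembled and quantified transcripts with StringTie, and deposited FPKM and the mean coverage of each transcript. Dividing coverage by FPKM gave the aligned bases of a library. The deposited estimated counts of circular RNAs were rounded, and how the authors made them is not given in the sources used here. Columns of comparisons made by the authors were not used.

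The 10 genes, the pathway lists and the marker lists were chosen with earlier results of these data known. Gene FPKM summed transcripts of class =, c, j and o. limma 3.58.1 (eBayes with trend) was fitted on log2(FPKM + 1) over all genes, or all transcripts, above 0 in at least 1 mouse compared, with Benjamini-Hochberg adjustment over all of them. Fold changes on this scale understate changes of low genes. Circular RNAs were tested with edgeR 4.0.16, TMM scaling and a filter of above 0 in 5 of 10 mice. Shares were compared by exact permutation of 252 assignments, and correlations by 100000 permutations within ages. Both model fits were tested on simulated data. Python 3.11.15 and scipy 1.17.1 did the rest. Named pathway genes were the 3 called genes with the smallest p in each direction and comparison, those with an adjusted p under 0.05, and Ern1, Eif2ak3 and Atf6. Named transcripts had a mean FPKM of at least 1. Exon structures came from GENCODE M21, with which 34 of 36 annotated transcripts of the 10 genes matched in exon number and length. Alternatives were a pseudocount of 0.1, genes averaging 1 FPKM or more, median-ratio scaling, TPM, all mice in 1 fit, annotated transcripts only, stricter calls, DESeq2 1.42.0 for circular RNAs and each mouse left out. Where nothing says how mice were handled beyond age, p-values measure the spread between these mice. Precision comes from the 5 mice per age, since the depth in reads per transcript is unknown. Some genes of the lists are counted but not reported here by name.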

Additional observations from a re-analysis of the deposited data

Results flagged for a closer look

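Of 33 groups of 5 mice (each of the 10 genes and the share of the Herpud1 decay isoform at 3 ages), 4 held a mouse whose gap to the next exceeded the 95% critical value of Dixon's test for 5 values, taken over the range of the group, where chance gives about 1 in 20. Hspa5 was 74.5 FPKM in replicate 5 of 3 months, where the other 4 had 53.4 to 58.9. Creld2 was 9.14 FPKM in replicate 17 of 12 months, against 5.26 to 5.54 in the others. Dnajb9 was 33.6 FPKM in replicate 6 of 3 months, against 6.45 to 11.1. The share of ENSMUST00000161085 in Herpud1 was 0.139% in replicate 31 of 24 months, where the others were listed at 0, so that any value above 0 would have stood apart there.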

How the results depend on the processing

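No paired analysis was possible because the ages share no replicate numbers. No alternative changed the direction of any of the 10 genes for 24 or 12 against 3 months. Between 24 and 12 months, differences close to 0 turned positive: with 1 mouse left out they ranged from -0.13 to 0.045 for Herpud1 (positive without replicate 17 or 35), from -0.22 to 0.042 for Hsp90b1 (without 32), from -0.20 to 0.012 for Xbp1 (without 35) and from -0.60 to 0.071 for Atf4 (without 19 or 21), and Herpud1 was 0.022 with TPM and Xbp1 0.12 with annotated transcripts only.

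The counts of pathway genes moved with the call rule, the scaling and single mice. For 24 against 3 months, 14 lower and 7 higher became 2 and 0 with a log2 fold change above 1 as well and 2 and 0 at an adjusted p under 0.05. Higher counts there became 4 with a mean FPKM of at least 1 and 2 with median-ratio scaling. For 12 against 3 months, 5 lower and 3 higher became 1 and 0 with the fold limit and 0 and 0 after adjustment, 9 lower with TPM, 19 lower and 1 higher with median-ratio scaling and 8 lower with annotated transcripts only. For 24 against 12 months, 2 lower became 1 with a mean FPKM of at least 1, TPM, median-ratio scaling, all mice in 1 fit or annotated transcripts only, 4 higher became 2 with that filter, and both became 0 under either stricter rule.
Leaving out each mouse in turn gave 11 to 16 lower and 2 to 9 higher for 24 against 3 months. It gave 3 to 8 lower and 2 to 7 higher for 12 against 3, and 1 to 5 lower and 2 to 7 higher for 24 against 12.

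The share of the Herpud1 decay isoform kept its direction, with differences over the mice left out of -6.27 to -4.84 percentage points for 24 against 3 months, -3.85 to -1.74 for 12 against 3 and -3.79 to -1.67 for 24 against 12. Its exact permutation p for 24 against 12 months was 0.0317 without 12-month-old replicate 18, on 24-month values that entered the choice of this isoform. The number of genes that covaried with Hspa5 after adjustment, 2 (Creld2 and Hsp90b1), became 1 by Spearman rho (Creld2), 1 without the 2 mice farthest from the median (Manf, with a negative r, and neither of the 2) and 4 without centring, which mixes in the age difference (Creld2, Herpud1, Xbp1 and Sdf2l1). The counts of transcripts with a pseudocount of 0.1 and the circular RNA under its alternatives kept their direction and their side of the threshold, with an adjusted p not given by DESeq2 for 24 against 12 months. The causes of these shifts were not tested. Depth in reads per transcript is unknown, so isoforms listed at 0 have no lower limit of detection here.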
